A study of Mus musculus with 7 samples.

Results

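The genes described here are 9 synaptic and axonal adhesion molecules, Cntn6, Cntnap4, Cntnap5b, Igsf21, Mdga1, Sdk2, Tenm3, Nectin3 and Slitrk6, taken by name from the 297 genes of a Xenium in situ panel. They were followed across neurons of coronal mouse brain hemisections that pass through the anterior thalamic nuclei, according to the transmitter genes that each segmented cell carried. All sections came from wild-type (WT) brain, were fresh frozen and were 10 µm thick. There were 2 anterior sections (bregma -0.58 mm, replicates 1 and 2), 2 intermediate sections (bregma -0.70 to -0.82 mm, replicates 1 and 2) and 3 posterior sections (bregma -0.94 mm, replicates 1, 3 and 4). Xenium decodes single transcripts of a fixed panel in tissue and assigns them to cells by their outlines. Which sections came from which animal, and the animals' age, sex and strain, are not stated in the labels, so a p-value here reflects section-to-section spread alone, part of which may be technical.

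VGLUT2, the vesicular glutamate transporter encoded by Slc17a6, is the usual transporter of thalamic and hypothalamic excitatory neurons, whereas VGLUT1, encoded by Slc17a7, is that of most cortical and hippocampal excitatory neurons. Gad1 and Gad2 encode the enzymes that make GABA. A cell was called VGLUT2, VGLUT1 or GABA when it held at least 5 transcripts of Slc17a6, of Slc17a7 or of Gad1 and Gad2 together and met neither other criterion, and double VGLUT when it met both glutamate criteria but not the GABA one. Of 384076 cells, 263912 met a criterion: 12141 double VGLUT, 19661 VGLUT2, 92411 VGLUT1 and 92349 GABA cells, and 47350 that met the GABA and a glutamate criterion and were not compared. The 41772 cells with 0 transcripts of all 4 genes served as the level outside these neurons.

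Adhesion molecules of this kind span or line the synaptic cleft and help set which partners a neurite contacts. The contactin Cntn6 is anchored to the outer membrane by a lipid, and Cntnap4 and Cntnap5b belong to the neurexin-like contactin-associated proteins. Igsf21 binds a neurexin and promotes inhibitory presynaptic terminals in mice, while Mdga1 binds neuroligins and blocks their contact with neurexins. Sdk2 binds itself across contacts in the retina, and Tenm3 binds itself and latrophilins in hippocampal wiring. Nectin3 pairs with other nectins in adherens-type junctions, and Slitrk6 is a leucine-rich repeat protein of the family that binds receptor phosphatases across the synapse.

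The genes lie on chromosomes 6 (Cntn6), 8 (Cntnap4 and Tenm3), 1 (Cntnap5b), 4 (Igsf21), 17 (Mdga1), 11 (Sdk2), 16 (Nectin3) and 14 (Slitrk6). Promoters from RefSeq (build GRCm38.p6) were matched for 8 of the 9, all but Cntnap4. The table gives 1 start per gene, and motifs were counted in the 250 bases before it. That start is not always the gene's outermost: all 250 bases lie inside the annotated gene for Cntn6, Mdga1, Tenm3 and Nectin3, 172 for Igsf21, 155 for Cntnap5b, 55 for Slitrk6 and 0 for Sdk2. The part outside the gene is given, 5′ to 3′, for Slitrk6 (chr14:110755205-110755399, minus strand), which was high in VGLUT2 cells, and for Sdk2 (chr11:114067030-114067279, minus strand) and Igsf21 (chr4:140246984-140247061, minus strand), which went one way among VGLUT1 cells. Capitals mark every match to GGGCGG, the GC box, or to CANNTG, the E-box, on either strand.
Slitrk6: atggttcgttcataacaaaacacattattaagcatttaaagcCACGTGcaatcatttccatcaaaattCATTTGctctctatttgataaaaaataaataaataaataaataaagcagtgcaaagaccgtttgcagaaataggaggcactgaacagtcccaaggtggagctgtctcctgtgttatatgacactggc
Sdk2: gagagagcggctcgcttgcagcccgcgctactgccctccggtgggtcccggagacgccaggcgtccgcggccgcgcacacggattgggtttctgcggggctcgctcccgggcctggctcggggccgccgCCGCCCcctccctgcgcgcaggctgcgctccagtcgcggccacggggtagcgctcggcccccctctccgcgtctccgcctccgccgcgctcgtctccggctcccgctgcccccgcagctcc
Igsf21: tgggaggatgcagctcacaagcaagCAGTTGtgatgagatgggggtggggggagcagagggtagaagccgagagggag

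Slitrk6 and Cntn6 had the lowest G and C content of the 8 windows of 250 bases, 37.2% and 45.2%, and held 2 and 4 E-boxes but no GC box. Tenm3 followed at 47.6%, with 1 E-box and no GC box. Sdk2 (78.8%) held 1 GC box and no E-box, Igsf21 (63.6%) 3 GC boxes and 1 E-box, and Nectin3 (73.2%) 5 GC boxes and no E-box. Over 32851 mouse promoters of this length, 32.7% held a GC box and 66.2% an E-box. The cyclic AMP response element TGACGTCA occurred once among the 8, before Tenm3, and in 1.5% of all promoters, while the TATA box TATAAA occurred in 0 of the 8 and in 12.4% of all. Matches that overlap were each counted. These are matches of letters in this window, not sites shown to be bound.

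The 7 sections held 50169 to 60720 cells and 17438577 to 23432215 transcripts each. Median transcripts per cell were 600 in double VGLUT, 426 in VGLUT2, 430 in VGLUT1 and 375 in GABA cells, a difference in depth that levels per cell carry. The fitted differences use edgeR's TMM scaling, which need not remove all of it. In double VGLUT minus VGLUT2 cells the all-gene median log2 difference was -0.11 under TMM. It was 0.007 with scaling by the number of cells and -0.46 under library size. Markers of glia, vessels and fibroblasts (39 measured, none at 0 in any class) took 3.08% to 4.87% of transcripts in double VGLUT, 7.06% to 8.67% in VGLUT2, 6.03% to 6.97% in VGLUT1 and 8.0% to 8.87% in GABA cells over the sections. Their part in the results was not tested beyond leaving them out of the scaling. In double VGLUT minus VGLUT2 cells that moved the log2 differences of Igsf21 (0.10 to -0.19), Nectin3 (0.30 to 0.005), Cntnap5b (0.45 to 0.15) and Mdga1 (-0.29 to -0.58). All 384076 cell barcodes were distinct, and 8 letter stems occurred in more than 1 section. Levels are not set between genes, because probe numbers per gene are not stated.

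Between the transmitter classes the members went different ways. VGLUT2 cells carried more Slitrk6, Cntn6, Tenm3 and Cntnap5b than both VGLUT1 and GABA cells, and by the fitted differences Cntnap4 was higher in GABA cells than in either other class. Per cell, though, VGLUT2 cells held more Cntnap4 than GABA cells in anterior replicate 2 (0.958 against 0.778) and intermediate replicate 2 (0.809 against 0.751). VGLUT1 cells carried the most Igsf21 and Nectin3 of the 3 single classes, though their Nectin3 range overlapped that of VGLUT2 cells. In VGLUT2 minus VGLUT1 cells 5 members were higher, 2 lower and 2 not past an adjusted p of 0.05 in edgeR's quasi-likelihood test, against 39.9% of all genes tested higher, 42.0% lower and 81.9% either. In VGLUT2 minus GABA cells 7 were higher, 1 lower and 1 not called (36.5%, 36.5% and 73.0% of all genes). In VGLUT1 minus GABA cells 3 were higher, 5 lower and 1 not called (40.3%, 37.5% and 77.8%). Of all genes called in that comparison, 51.8% were higher under TMM scaling and 38.4% under library size, where Cntn6, called under neither, was -0.23 in place of 0.00 and the other members kept their sign. The members' median log2 differences were 0.47, 0.73 and -0.39, against -0.05, 0.03 and 0.00 over all genes. Most panel genes were called in each comparison, so a call says little about a member, and its size and spread are given instead.

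**Figure D1:**
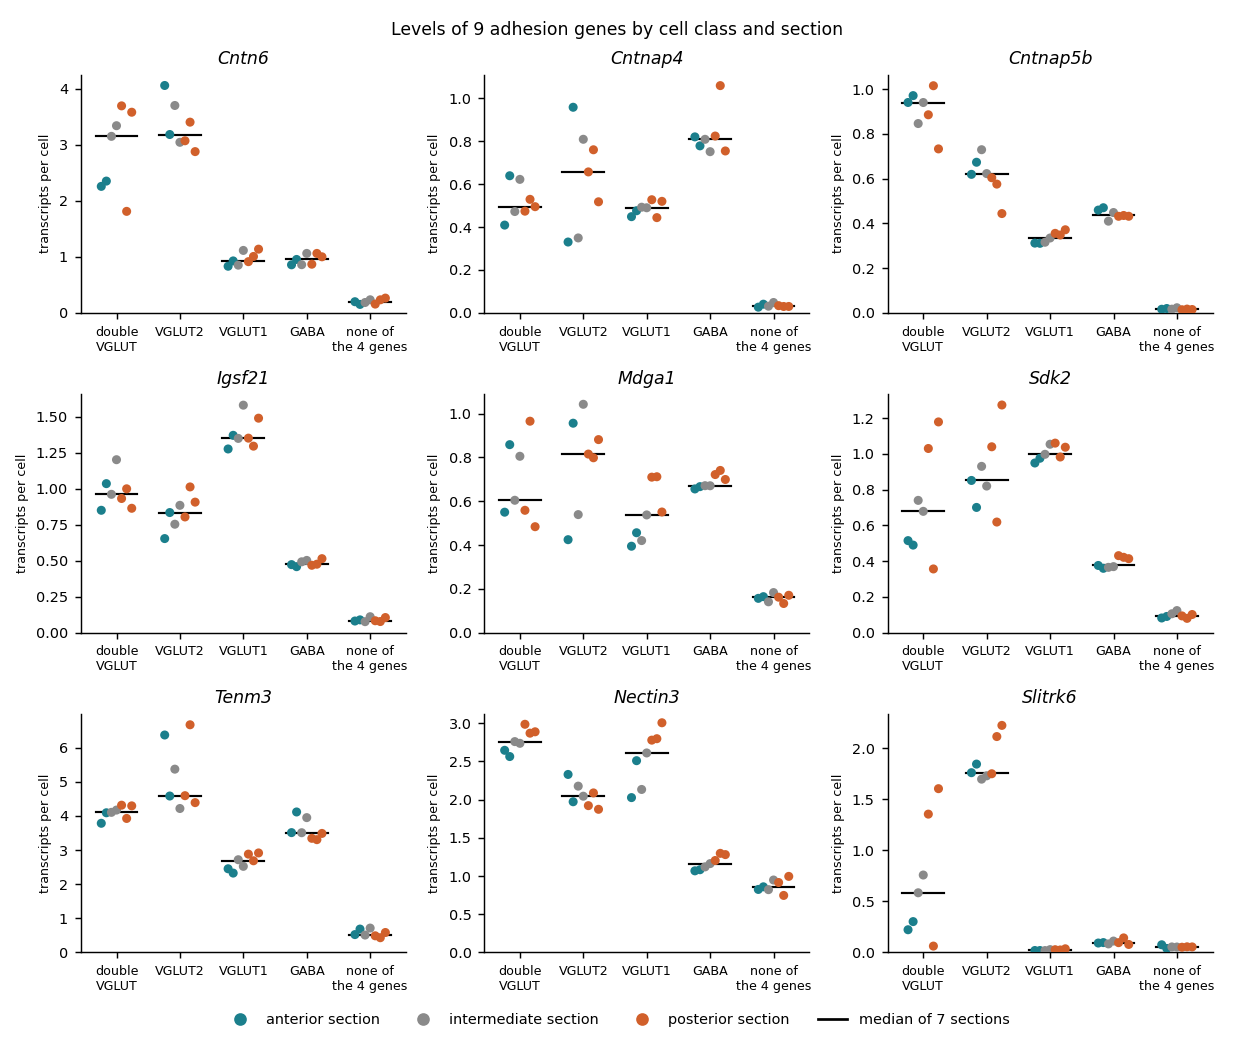
Mean transcripts per cell of each gene (vertical axes, each from 0) in double VGLUT, VGLUT2, VGLUT1 and GABA cells and in cells with none of the 4 class genes; a point is 1 section, coloured by position, and the line is the median of 7 sections. Slitrk6 sits between 1.70 and 2.22 in VGLUT2 cells and at or below 0.143 in VGLUT1 and GABA cells, while in double VGLUT cells it spreads from 0.0626 to 1.60.

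Of the 3 single classes, VGLUT2 cells carried the most Slitrk6. Its lowest, median and highest section had 1.70, 1.76 and 2.22 transcripts per cell in VGLUT2 cells, against 0.0188, 0.0246 and 0.0361 in VGLUT1 cells and 0.0787, 0.0963 and 0.143 in GABA cells. No section of any of these classes reached the range of another. The log2 difference was 6.26 ± 0.46 (SE, adjusted p 2.49e-11) against VGLUT1 cells and 4.15 ± 0.42 (adjusted p 6.30e-09) against GABA cells. Cells without the class genes held 0.0394 to 0.0755 Slitrk6 transcripts, above every VGLUT1 section, so the VGLUT1 level is read as background and the difference from it is not a measured fold. Per 1000 transcripts GABA cells held 0.188 to 0.375 and cells without the class genes 0.275 to 0.528, so on that scale the GABA range overlapped that of cells outside the classes. The difference of -2.11 ± 0.39 in VGLUT1 minus GABA cells became -0.35 (adjusted p 0.332) when each class was drawn by its own criterion alone. That setting counts double VGLUT cells among VGLUT1 cells. It also brings in the cells that met the GABA and a glutamate criterion, and those that met the GABA and VGLUT1 criteria enter both classes.

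Cntn6 was the other member with a large VGLUT2 excess. VGLUT2 cells held 2.88, 3.18 and 4.06 transcripts per cell (lowest, median and highest section), against 0.833, 0.928 and 1.14 in VGLUT1 cells and 0.858, 0.954 and 1.06 in GABA cells. The log2 difference was 1.76 ± 0.13 against VGLUT1 cells (adjusted p 2.65e-11) and 1.76 ± 0.13 against GABA cells (adjusted p 3.51e-11), while VGLUT1 and GABA cells overlapped and differed by 0.00 ± 0.13 (adjusted p 0.981). Tenm3 ran at 4.22, 4.59 and 6.67 in VGLUT2 cells, against 2.33, 2.69 and 2.91 in VGLUT1 cells and 3.3, 3.51 and 4.11 in GABA cells, and per cell no class overlapped another. Per 1000 transcripts VGLUT2 cells held 9.08 to 16.4 and GABA cells 8.27 to 10.0, which overlapped. In intermediate replicate 2 GABA cells were the higher on that scale, at 9.34 against 9.18. The Tenm3 log2 difference was 0.92 ± 0.11 in VGLUT2 minus VGLUT1 cells (adjusted p 3.94e-08) and 0.46 ± 0.11 in VGLUT2 minus GABA cells (adjusted p 4.62e-04). Anterior replicate 1 and posterior replicate 3, the sections with the fewest VGLUT2 cells (1720 and 1680), held the highest Tenm3 levels there, 6.37 and 6.67.

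Igsf21, Nectin3 and Sdk2 were higher in both glutamatergic classes than in GABA cells. Igsf21 stood at 1.28, 1.35 and 1.58 transcripts per cell in VGLUT1 cells against 0.459, 0.476 and 0.514 in GABA cells, a log2 difference of 1.51 ± 0.08 (adjusted p 1.32e-13). VGLUT2 cells lay between them (0.654, 0.835 and 1.01), with differences of -0.78 from VGLUT1 and 0.73 from GABA cells. Nectin3 had 2.03, 2.61 and 3.0 in VGLUT1 cells against 1.07, 1.16 and 1.30 in GABA cells (log2 difference 1.10 ± 0.07, adjusted p 5.50e-12). VGLUT2 cells held 1.87, 2.04 and 2.33, overlapping VGLUT1 cells, with a difference of -0.34 ± 0.07 from them (adjusted p 2.20e-04). Per cell, VGLUT2 exceeded VGLUT1 cells in anterior replicate 1 (2.33 against 2.03) and intermediate replicate 1 (2.18 against 2.13), and was lower in the other sections. Nectin3 was also present outside these classes: per 1000 transcripts it ran from 5.05 to 6.03 in VGLUT1 and 2.64 to 3.4 in GABA cells, against 5.71 to 6.06 in cells without the class genes. Sdk2 differed by 1.09 ± 0.14 in VGLUT2 minus GABA cells (adjusted p 3.27e-07) and 1.35 ± 0.14 in VGLUT1 minus GABA cells (adjusted p 9.49e-09). VGLUT2 and VGLUT1 cells overlapped in Sdk2, at 0.619 to 1.27 and 0.949 to 1.06, and their difference of -0.26 ± 0.14 had an adjusted p of 0.0836, which passed under 3 of the alternatives.

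The largest difference between the single classes was smaller for Cntnap4, Mdga1 and Cntnap5b than for the other members. Cntnap4 held 0.444, 0.490 and 0.527 transcripts per cell in VGLUT1 cells against 0.751, 0.809 and 1.06 in GABA cells, with no overlap (log2 difference -0.77 ± 0.16, adjusted p 1.99e-04). Its VGLUT2 level ranged from 0.330 in anterior replicate 1 to 0.958 in anterior replicate 2, overlapping both other classes. The VGLUT2 minus GABA difference of -0.51 ± 0.16 had an adjusted p of 0.00823 with all sections and of 0.0505 without intermediate replicate 1. Mdga1 showed the same split by replicate number in VGLUT2 cells, with 0.424 and 0.539 in anterior and intermediate replicates 1 and 0.956 and 1.04 in replicates 2. Posterior replicates 1, 3 and 4 held 0.815, 0.798 and 0.881. Its VGLUT2 minus VGLUT1 difference of 0.47 ± 0.15 (adjusted p 0.00638) was 0.18 (adjusted p 0.297) with a class threshold of 3 transcripts. Its VGLUT1 minus GABA difference of -0.39 ± 0.15 (adjusted p 0.0203) had an adjusted p of 0.0569 without posterior replicate 4. Cntnap5b held 0.444, 0.619 and 0.729 in VGLUT2 cells against 0.311, 0.335 and 0.371 in VGLUT1 cells, a difference of 0.81 ± 0.09, and was 0.41 ± 0.09 above GABA cells.

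**Figure D2:**
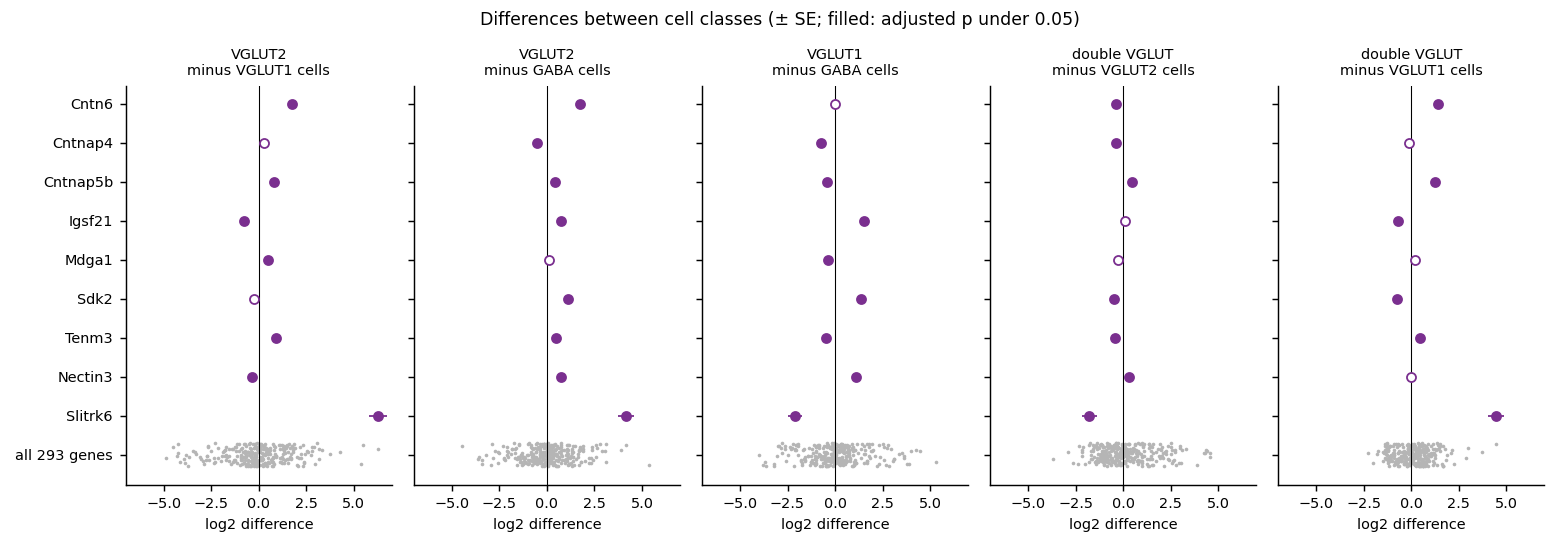
Log2 difference ± SE (horizontal axis) of each member in 5 class comparisons, first-named class minus second; filled points have an adjusted p under 0.05, and grey points in the lowest row are all genes tested, spread vertically at random. Against VGLUT1 cells, whose Slitrk6 level is read as background, Slitrk6 lies at 6.26 for VGLUT2 and 4.47 for double VGLUT cells.

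Double VGLUT cells differed from both single glutamate classes, with Slitrk6 between them. Against VGLUT2 cells 2 members were higher, 5 lower and 2 not called (38.2%, 44.7% and, either way, 82.9% of all genes), and against VGLUT1 cells 4 were higher, 2 lower and 3 not called (43.0%, 31.4% and 74.4%). Of all genes called against VGLUT1 cells, 57.8% were higher under TMM, 39.7% under library size and 67.0% with scaling by the number of cells. Slitrk6 held 0.0626, 0.585 and 1.60 transcripts per cell in double VGLUT cells against 1.70, 1.76 and 2.22 in VGLUT2 cells, a log2 difference of -1.79 ± 0.39 (adjusted p 2.27e-04), which was -1.60 without posterior replicate 3. Among the members lower than in VGLUT2 cells, the calls of Cntn6 and Cntnap4 were lost under 3 and 5 of the alternatives, among them without anterior replicate 1 for Cntn6 and without anterior replicate 2, intermediate replicate 2 or posterior replicate 1 for Cntnap4. That of Sdk2 was lost at a class threshold of 10 transcripts (-0.30, adjusted p 0.0924). In double VGLUT minus VGLUT1 cells Slitrk6 was 4.47 ± 0.43 (adjusted p 5.22e-09), again against a level read as background. All 7 sections lay above the VGLUT1 range, but posterior replicate 3 (0.0626) lay within that of cells without the class genes (0.0394 to 0.0755). Per 1000 transcripts those cells held 0.275 to 0.528. On that scale posterior replicate 3 (0.0993) lay below their range, and both anterior sections (0.374 and 0.490) lay within it. Cntn6 was 1.40 ± 0.13 higher than in VGLUT1 cells (1.81, 3.15 and 3.70 against 0.833, 0.928 and 1.14). Cntnap5b had 0.733, 0.940 and 1.02 and was 1.26 ± 0.09 above VGLUT1 cells. Its 0.45 ± 0.09 over VGLUT2 cells was 0.09 (adjusted p 0.289) with library size in place of TMM scaling. The median of all genes moved with this scaling, at -0.46 under library size and -0.11 under TMM. That Cntnap5b call was also lost at a class threshold of 10 transcripts (0.18, adjusted p 0.104) and without the non-neuronal markers (0.15, adjusted p 0.126). Igsf21, not called, and Nectin3, called, changed sign between these scalings in double VGLUT minus VGLUT2 cells: Igsf21 was 0.10 under TMM and -0.25 under library size, and Nectin3 0.30 and -0.05. Nectin3 was 0.005 (adjusted p 0.955) without those markers and 0.17 (adjusted p 0.0591) without posterior replicate 4. At the threshold of 10 it was -0.25 (adjusted p 0.0132).

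Of 42 other adhesion, guidance and synapse organiser genes listed, the panel measured 30. In VGLUT2 minus VGLUT1 cells 13 of them were higher, 12 lower and 5 not called, and in VGLUT2 minus GABA cells 13, 10 and 7, where 81.9% and 73.0% of all genes were called. Their median log2 differences were 0.04 and 0.12, against -0.05 and 0.03 over all genes. Cbln1, a secreted organiser that bridges neurexins to postsynaptic receptors, had the largest excess of the list in VGLUT2 cells, 5.48 ± 0.39 over VGLUT1 and 5.35 ± 0.39 over GABA cells. In the same comparison with VGLUT1 cells the ephrin receptor Epha1 was at 2.89 ± 0.32, the neurexin ligand Nxph3 at -1.85 ± 0.12 and Lypd6 at -1.71 ± 0.16. Nrn1 rose by 3.92 ± 0.07 in VGLUT2 minus GABA cells, where Neto2 (-1.83 ± 0.08) and Cdh9 (-1.38 ± 0.08) were lowest. In VGLUT1 minus GABA cells 11 of the 30 were higher, 13 lower and 6 not called (77.8% of all genes called), with Nrn1 at 4.46 ± 0.07, Nxph3 at 2.74 ± 0.12, Chodl at -3.23 ± 0.21 and Ror1 at -1.95 ± 0.13. Double VGLUT cells had 15 higher, 11 lower and 4 not called against VGLUT2 cells (82.9% of all genes called), with Cbln4 at 2.06 ± 0.26, Tmem132d at 1.94 ± 0.12, Cbln1 at -3.70 ± 0.36 and Chodl at -2.31 ± 0.22. Against VGLUT1 cells they had 19 higher, 5 lower and 6 not called (74.4% of all genes called, 57.8% of them higher under TMM but 39.7% under library size), with C1ql2 at 3.72 ± 0.42, Epha1 at 1.87 ± 0.33, Sema3e at -1.25 ± 0.17 and Sema3d at -1.11 ± 0.12.

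The next comparisons asked how the members vary inside a class. Cells with at least 5 transcripts of a gate gene were set against the rest of their class in 22 gates, none of which used a member. Of 198 member and gate pairs 86 were higher, 53 lower and 59 not called, against 33.4% of all genes and gates higher, 37.4% lower and 70.8% either. In 85 pairs the gated sections did not overlap the rest. The same share over all genes was not computed, so this count is not read as particular to the members. By class the members were 9 higher and 7 lower of 18 (against 31.6%, 38.5% and, in either direction, 70.1% of all genes) in double VGLUT cells, 19 higher and 13 lower of 63 (against 26.2%, 27.5% and, in either direction, 53.6% of all genes) in VGLUT2 cells, 24 higher and 15 lower of 45 (against 38.7%, 45.8% and, in either direction, 84.5% of all genes) in VGLUT1 cells and 34 higher and 18 lower of 72 (against 36.9%, 40.4% and, in either direction, 77.3% of all genes) in GABA cells. Gates share cells and sections, so the 22 are not independent. Gated cells often hold more transcripts in all, which levels per cell carry and the TMM scaling of the fitted differences need not remove in full.

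**Figure D3:**
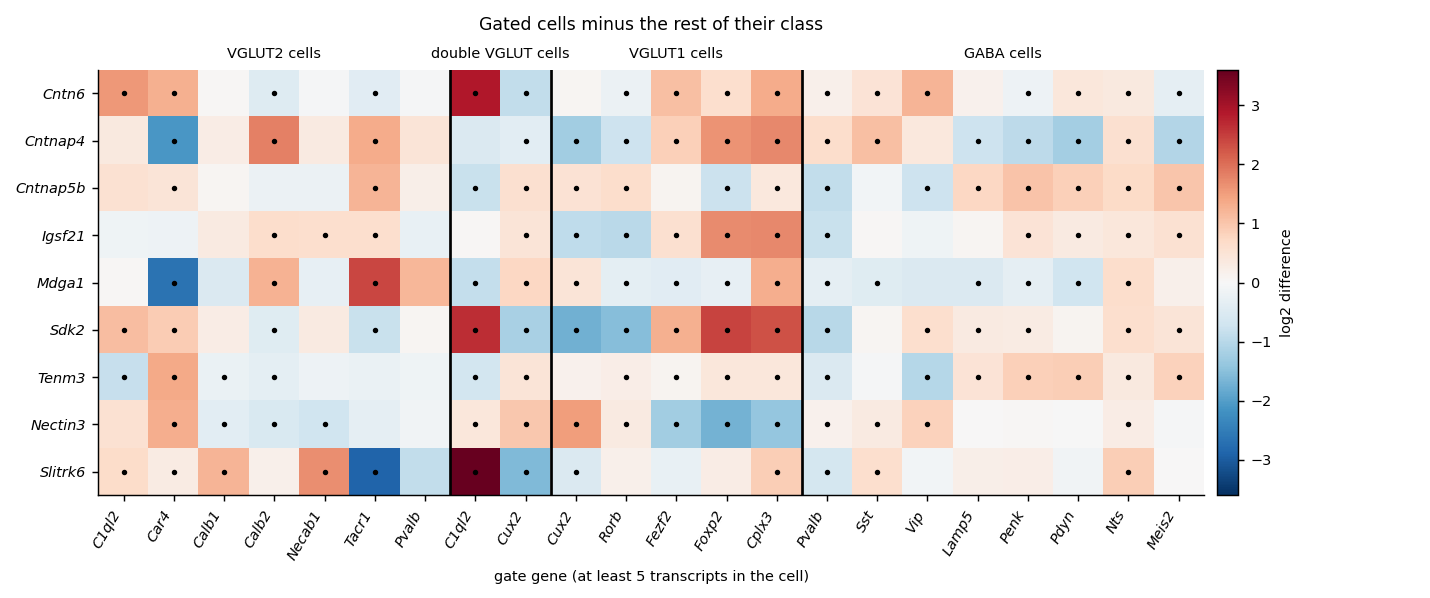
Log2 difference (colour, red higher and blue lower in gated cells) of the 9 members (rows) in 22 gates (columns), grouped by class; a dot marks an adjusted p under 0.05. The highest value is Slitrk6 in C1ql2-gated double VGLUT cells (3.57) and the lowest Slitrk6 in Tacr1-gated VGLUT2 cells (-2.87).

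Among double VGLUT cells, those carrying C1ql2 differed in 7 of the 9 members (4 higher and 3 lower, where 72.3% of all genes were called). C1ql2 is a secreted synapse organiser known as a marker of the anterodorsal thalamic nucleus and also made by dentate granule cells, and the 853 gated cells were not assigned to either. Cntn6 held 13.6, 14.4 and 15.5 transcripts per gated cell against 1.74, 2.20 and 2.51 in the other double VGLUT cells (6 sections, since posterior replicate 3 had 4 gated cells). The log2 difference was 2.89 ± 0.12 (adjusted p 5.36e-08). Slitrk6 stood at 3.63, 3.89 and 4.41 against 0.0654, 0.399 and 1.36 (3.57 ± 0.55, adjusted p 2.40e-04), and Sdk2 at 2.95, 3.20 and 3.27 against 0.393, 0.494 and 0.988 (2.65 ± 0.23, adjusted p 3.95e-06). For these 3 genes no gated section overlapped the rest. Cntnap5b (-0.81), Mdga1 (-0.85) and Tenm3 (-0.65) fell, and Nectin3 was at 0.40. That Nectin3 call was lost under 5 of the alternatives, among them leaving out anterior replicate 1, intermediate replicate 2 or posterior replicate 4, and without the last it was 0.23 (adjusted p 0.172). In the 200 C1ql2-gated VGLUT2 cells, Cntn6 rose by 1.57 ± 0.13 and Sdk2 by 1.10 ± 0.19 (6 sections, since posterior replicate 3 had 9 gated cells), while the call of Slitrk6 at 0.65 ± 0.22 was lost under 6 of the alternatives, among them leaving out anterior, intermediate or posterior replicate 1. In the Cux2 gate of double VGLUT cells all 9 members passed (67.9% of all genes), with Slitrk6 at -1.59, Sdk2 at -1.16, Cntn6 at -0.90 and Nectin3 at 0.97. Of the 9, Cntnap4 lost its call under 5 of the alternatives, including the omission of either anterior section, intermediate replicate 2 or posterior replicate 3, and Igsf21 and Tenm3 under library size (0.23 and 0.25).

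Within VGLUT2 cells the members differed along Car4 and Tacr1. Cells with Car4, a membrane carbonic anhydrase, held 0.0514, 0.155 and 0.228 Mdga1 transcripts against 0.571, 0.989 and 1.16 in the rest (log2 difference -2.67 ± 0.20, adjusted p 8.23e-07). Cntnap4 fell too, at 0.0679, 0.168 and 0.221 against 0.432, 0.772 and 1.06 (-2.10 ± 0.15). Tenm3 rose by 1.37 ± 0.05, Nectin3 by 1.32 ± 0.10, Cntn6 by 1.29 ± 0.10 and Sdk2 by 0.91 ± 0.09, and for Tenm3, Nectin3 and Cntn6 no gated section overlapped the rest. The 249 cells with Tacr1, the substance P receptor, differed in the opposite direction for several of these genes. Mdga1 stood at 4.0, 5.01 and 5.40 in Tacr1-gated cells against 0.512, 0.788 and 0.971 in the rest (2.41 ± 0.16, adjusted p 1.08e-08; 6 sections, since anterior replicate 1 had 7 gated cells), Cntnap4 rose by 1.34 ± 0.20 and Cntnap5b by 1.23 ± 0.21. Sdk2 fell by 0.81 ± 0.21. Cntn6 was at -0.40 ± 0.14, a call lost under 4 of the alternatives, among them leaving out anterior replicate 2, intermediate replicate 1 or posterior replicate 4. Slitrk6 was at 0, 0.122 and 0.796 in Tacr1-gated cells against 1.71, 1.81 and 2.26 (-2.87 ± 0.42, adjusted p 3.71e-05).

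Slitrk6 was higher in VGLUT2 cells with the calcium-binding genes Necab1 or Calb1. It held 3.20, 3.43 and 3.91 transcripts in Necab1-gated cells against 0.647, 1.08 and 1.53 in the rest (1.66 ± 0.15, adjusted p 2.60e-05), and 2.55, 3.37 and 3.85 against 1.0, 1.16 and 1.67 for Calb1 (1.22 ± 0.09). Cells with Calb2, calretinin, carried more Cntnap4 (0.610, 1.15 and 1.44 against 0.186, 0.283 and 0.451, 1.81 ± 0.16), Mdga1 (1.26 ± 0.19) and Igsf21 (0.63 ± 0.10). In the Pvalb gate of VGLUT2 cells edgeR called 0 of 9 members and 17.6% of all genes, and 2 members had an unadjusted p under 0.05. These were Mdga1 at 1.19 ± 0.42 (adjusted p 0.0658) and Slitrk6 at -0.88 ± 0.32 (adjusted p 0.0710), and each passed under 3 of the alternatives, such as without posterior replicate 4. The share of VGLUT2 cells with Car4 was 28.3% and 25.7% in anterior and intermediate replicates 1, and 11.8% and 12.7% in replicates 2, which moved with the replicate split of Mdga1 and Cntnap4 over all VGLUT2 cells. Its part in that split was not tested.

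In VGLUT1 cells Sdk2, Igsf21 and Cntnap4 went one way and Nectin3 the other. Foxp2, Cplx3 and Fezf2 are known in the cortex as genes of deep layers, and Cux2 and Rorb as genes of upper and middle layers. Sdk2 held 3.12, 3.34 and 3.63 transcripts in Foxp2-gated cells against 0.749, 0.799 and 0.845 in the rest (2.44 ± 0.05, adjusted p 8.37e-13). It held 3.42, 3.84 and 4.32 against 0.836, 0.889 and 0.945 for Cplx3, and 2.51, 2.56 and 2.74 against 0.821, 0.859 and 0.918 for Fezf2. It was lower in Cux2-gated cells, at 0.358, 0.435 and 0.494 against 1.10, 1.19 and 1.31 (-1.72 ± 0.05, adjusted p 1.96e-10), and in Rorb-gated cells (-1.54 ± 0.03). Igsf21 had log2 differences of 1.71, 1.73 and 0.58 in the Foxp2, Cplx3 and Fezf2 gates and -0.92 and -0.98 in the Cux2 and Rorb gates. Cntnap4 had 1.63, 1.72 and 0.85, then -1.26 and -0.74. For these 3 genes and Nectin3, no difference in these 5 gates changed sign under the alternatives run, and no gated section overlapped the rest.

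**Figure D4:**
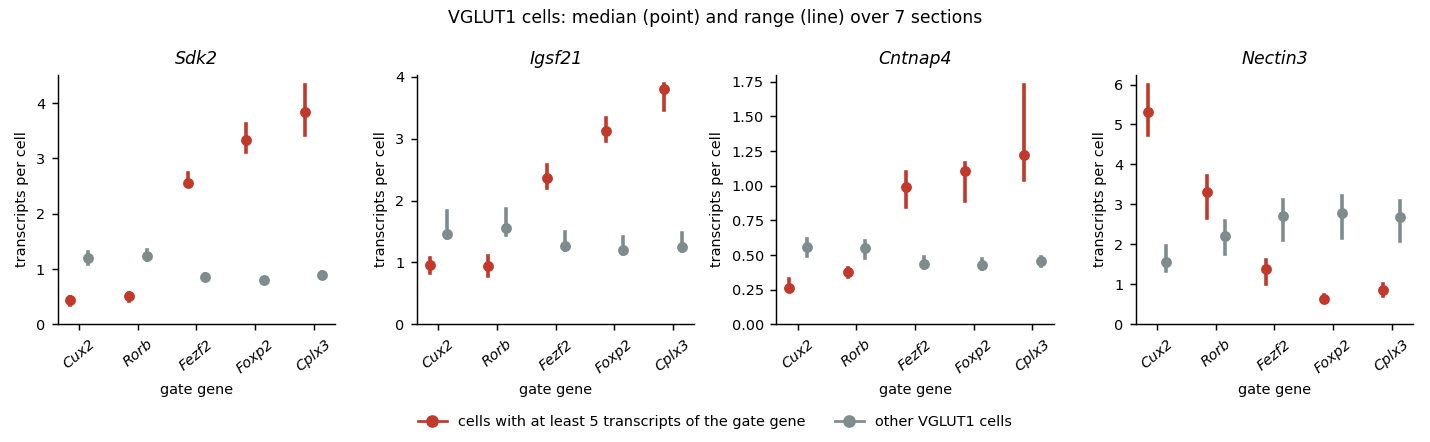
Transcripts per cell of Sdk2, Igsf21, Cntnap4 and Nectin3 (vertical axes, each from 0) in VGLUT1 cells that pass each gate (red, left) and in the other VGLUT1 cells (grey, right); points are medians and lines ranges over 7 sections. Nectin3 is high in Cux2-gated cells (median 5.31 against 1.55) and low in Foxp2-gated cells (0.639 against 2.79), and the other 3 genes show the reverse.

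Nectin3 stood at 4.73, 5.31 and 5.98 in Cux2-gated VGLUT1 cells against 1.34, 1.55 and 1.95 in the rest (1.49 ± 0.04, adjusted p 1.89e-10). In Foxp2-gated cells it had 0.548, 0.639 and 0.731 against 2.15, 2.79 and 3.22 (-1.71 ± 0.05, adjusted p 5.34e-12). The Cplx3 and Fezf2 gates gave -1.40 ± 0.07 and -1.26 ± 0.05, and the Rorb gate 0.34 ± 0.04. Mdga1 rose in the Cplx3 gate by 1.31 ± 0.11 (0.982, 1.0 and 1.27 against 0.372, 0.517 and 0.702) and was at -0.31 and -0.42 in the Foxp2 and Fezf2 gates. Cntn6 rose by 1.34 ± 0.05 and 1.08 ± 0.06 in the Cplx3 and Fezf2 gates. In the Foxp2 gate its 0.62 turned to -0.03 under library size, and the 0.42 of Tenm3 to -0.23.

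In GABA cells, Cntnap4 rose in the gates of the interneuron genes Sst (1.65, 1.78 and 2.23 against 0.730, 0.788 and 1.04, 1.09 ± 0.08, adjusted p 1.81e-08) and Pvalb (0.63 ± 0.06). It fell in cells with Pdyn (0.275, 0.311 and 0.414 against 0.787, 0.861 and 1.13, -1.23 ± 0.06), Meis2 (-1.04 ± 0.05) and Penk (-0.93 ± 0.05), genes known from striatal projection neurons, and in Lamp5-gated cells (-0.75 ± 0.07). Cntnap5b rose by 1.03 ± 0.05 in the Penk, 1.0 ± 0.05 in the Meis2 and 0.87 ± 0.07 in the Pdyn gate and was at -0.90 ± 0.06 in the Pvalb gate. Tenm3 had 0.86, 0.83, 0.88 and -0.52 in the same gates. Vip-gated cells held less Tenm3 (0.785, 1.42 and 1.79 against 3.33, 3.53 and 4.13, -1.04 ± 0.09) and more Cntn6 (1.23 ± 0.10). With Nts, neurotensin, as the gate, all 9 members were higher, by 0.28 to 0.88, where 29.8% of all genes were, and 4 of these calls were lost under library size.

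Across the 22 gated groups, described by log2(CPM + 10) averaged over sections, the member pairs most alike were Cntn6 and Slitrk6 (Pearson r 0.80), Igsf21 and Sdk2 (0.70), Cntnap4 and Mdga1 (0.66) and Cntnap5b and Tenm3 (0.61), and the most opposed were Cntnap4 and Nectin3 (-0.46). The groups share cells, sections and depth, so these values are descriptions. The genes nearest to Cntn6 were Igfbp5, Sptlc2 and Sntb1 (0.89, 0.88 and 0.87), and those nearest to Slitrk6 Sntb1, Tanc1 and Prox1 (0.92, 0.89 and 0.88). Igsf21 was nearest to Nxph3, Ccn2 and Sla (0.85, 0.82 and 0.74) and Sdk2 to Pcsk5, Gadd45a and Igsf21 (0.81, 0.80 and 0.70). Nectin3 was nearest to Prr16, Bhlhe40 and Nrep (0.81, 0.73 and 0.73) and Cntnap4 to Rab3b, Sema3d and Hpcal1 (0.79, 0.77 and 0.74). Mdga1 was nearest to Sema3d, Dpyd and Cntnap4 (0.73, 0.72 and 0.66), Cntnap5b to Cdh4, Sox11 and Nrp2 (0.70, 0.66 and 0.63) and Tenm3 to Sox11, Pcp4 and Epha8 (0.66, 0.64 and 0.64).

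Pairs of members were also counted in single cells. The number of cells with at least 2 transcripts of both genes was set against the number that independence within each section and decile of total transcripts would give, as a description with no test. In double VGLUT cells Sdk2 and Slitrk6 met in 1123 cells against 448, a ratio of 2.51, and Igsf21 and Mdga1 in 795 cells against 396, a ratio of 2.01. In VGLUT2 cells Cntnap4 and Mdga1 met more often than that (1160 cells against 602, a ratio of 1.93) and Mdga1 and Slitrk6 less often (501 cells against 1297, a ratio of 0.386). In VGLUT1 cells Cntnap4 and Sdk2 met in 5227 cells against 2541, a ratio of 2.06, Igsf21 and Sdk2 in 13864 cells against 7802, a ratio of 1.78, and Sdk2 and Nectin3 in 6231 cells against 11254, a ratio of 0.554. In GABA cells Mdga1 and Sdk2 met in 2260 cells against 1264, a ratio of 1.79.

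Along the front-to-back axis few differences passed. In posterior minus anterior sections edgeR called 0 genes (0.0%), so 0 members, in VGLUT2, VGLUT1 and GABA cells and in double VGLUT cells, the last a test added after the levels were seen. At an unadjusted p under 0.05 there were 2 genes and 0 members in VGLUT2, 43 and 2 in VGLUT1, 34 and 1 in GABA and 8 and 0 in double VGLUT cells. DESeq2 called 0, 16, 7 and 1 genes in these classes, with 1 member, Nectin3 in VGLUT1 cells (0.18, adjusted p 0.0152, where 5.46% of genes were called). An interaction test of whether the position difference differs between classes called 0 genes in each of the 3 pairs of single classes by edgeR, with 10, 16 and 9 genes and 0 members at an unadjusted p under 0.05.

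Sections with the same replicate number deviated together, so the number was tried as a block, on 1 residual degree of freedom. Replicates 3 and 4 hold only 1 section each, both posterior, so the block absorbs them. The blocked difference therefore rests on posterior replicate 1 alone, and only its size is given. For the members past the threshold there, it was 0.63 (Mdga1) and 0.20 (Nectin3) in VGLUT1 cells. Tenm3 was at -0.18 in GABA cells and Slitrk6 at 2.39 in double VGLUT cells. Without the block Mdga1 was 0.48 ± 0.16 (adjusted p 0.191), Nectin3 0.18 ± 0.05 (adjusted p 0.175), Tenm3 -0.25 ± 0.08 (adjusted p 0.264) and Slitrk6 1.75 ± 1.08 (adjusted p 0.716). Mdga1 in VGLUT1 cells stood at 0.395 and 0.456 in anterior, 0.420 and 0.537 in intermediate and 0.71, 0.712 and 0.551 in posterior sections, so every posterior section lay above every anterior and intermediate one. It was called without posterior replicate 4 (0.64, adjusted p 0.00797, where 3.75% of genes were). That section was the lowest of the posterior ones, so its omission enlarges the difference, and this call is not read as support. Nectin3 in VGLUT1 cells was 2.03 and 2.51 in anterior, 2.13 and 2.61 in intermediate and 2.78, 2.80 and 3.0 in posterior sections. Posterior replicates 3 and 4 lay on slide 2 and the other sections on slide 1, and within slide 1, with 1 posterior section left, edgeR called 0 members. Mdga1 in VGLUT1 cells was then 0.62 (adjusted p 0.0807) and Slitrk6 in double VGLUT cells 2.20 (adjusted p 0.114).

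Slitrk6 in double VGLUT cells had the widest relative spread over sections of any member and class. Its level was 0.223 and 0.303 in anterior, 0.585 and 0.759 in intermediate and 1.36, 0.0626 and 1.60 in posterior sections, the low posterior value being replicate 3. Without that section the posterior minus anterior difference was 2.30 (adjusted p 0.0104) and that of Sdk2 0.94 (adjusted p 0.0387), with 19 of 292 genes called (6.51%). Posterior replicate 3 was the lowest section for both genes, so leaving it out favours a posterior excess, and these p-values are not read as support. With all sections edgeR gave 1.75 ± 1.08 for Slitrk6 and 0.59 ± 0.46 for Sdk2, each with an adjusted p of 0.716. The percentage of double VGLUT cells that passed the C1ql2 gate moved with the Slitrk6 level, at 4.25 and 1.80 in anterior, 9.48 and 6.46 in intermediate and 12.3, 0.291 and 9.75 in posterior sections. Inside C1ql2-gated cells Slitrk6 stayed between 3.63 and 4.41 transcripts in the 6 sections with more than 4 such cells. In the other double VGLUT cells it was 0.0654 and 0.237 in anterior, 0.189 and 0.560 in intermediate and 0.928, 0.0599 and 1.36 in posterior sections. The part of the C1ql2-gated share in the difference was not tested. In VGLUT2 cells Slitrk6 stood at 1.76 and 1.85 in anterior, 1.70 and 1.73 in intermediate and 1.75, 2.11 and 2.22 in posterior sections, a posterior minus anterior difference of 0.08 ± 0.19 (adjusted p 0.996).

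**Figure D5:**
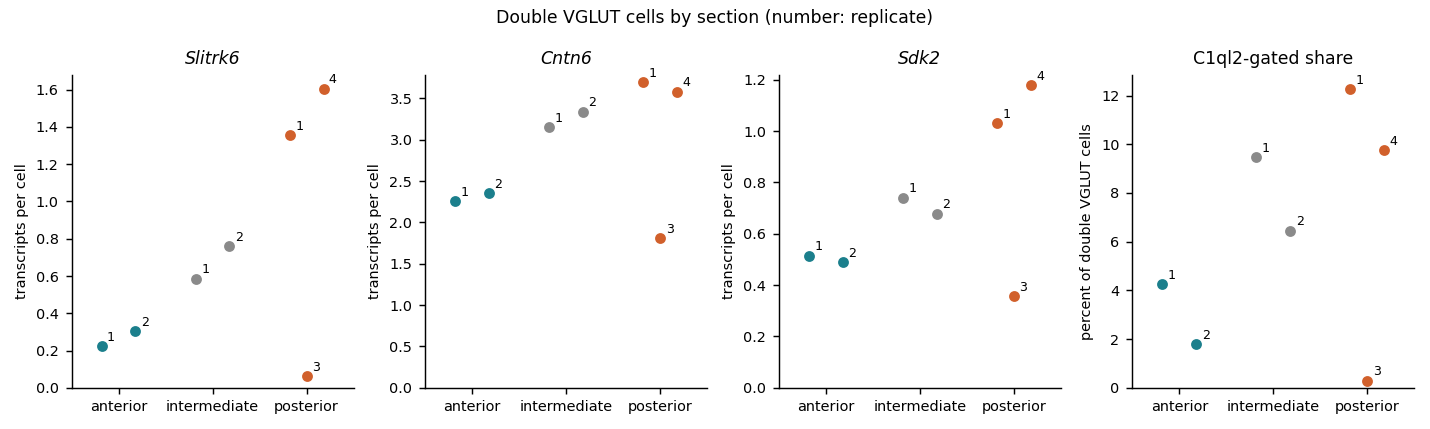
Transcripts per double VGLUT cell of Slitrk6, Cntn6 and Sdk2, and the percentage of these cells that pass the C1ql2 gate, in each section (vertical axes, each from 0) by position; numbers beside points are replicates. Posterior replicate 3 is the lowest point in each panel, at 0.0626, 1.81, 0.357 and 0.291%, and posterior replicates 1 and 4 are the highest.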

How the data were processed

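Xenium in situ transcripts were measured in 7 fresh-frozen mouse brain sections. The deposited table holds whole-number counts of transcripts per gene and segmented cell, read as not normalized because the values are whole and their sums equal the per-cell totals named in the file headers. The submitters' processing notes name Seurat. Segmentation settings were not stated in the labels. The 9 members and all lists were chosen with earlier results of these data known. Sections were grouped by the position in their titles.

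Counts were summed per section and cell class (at least 5 transcripts of a class gene), the 4 class genes were left out, and sums were tested with edgeR 4.0.16 (quasi-likelihood, TMM, filterByExpr, section as block, Benjamini-Hochberg adjustment over all genes tested) in R 4.3.3, with DESeq2 1.42.0 as an alternative and Python 3.11.15 for tables. Position was tested within each class without a block. Gates needed at least 10 cells on both sides in at least 4 sections. No further filter on cells was set and no doublet caller was run, so double VGLUT cells can include doublets or overlapping outlines. SE is the log2 difference divided by the root of F. Named were all members, for each the 3 genes most alike, and the 2 largest called differences of the adhesion list in each direction. Deviations of the replicate 1 sections from their group means correlated at 0.332 to 0.869 in 3 pairs and 3 classes. The replicate numbers, taken from the titles, are not stated to mark an animal and served as a block for position only in an alternative. The tests were tried on simulated data. Depth was 17438577 to 23432215 transcripts per section. Alternatives were other scalings, thresholds, filters, blocks, slides and each section left out.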

Additional observations from a re-analysis of the deposited data

Results flagged for a closer look

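Cntnap4 in GABA cells stood apart in posterior replicate 3, at 1.06 transcripts per cell, where the nearest section had 0.824 and the lowest 0.751. Its gap to the nearest section was 0.764 of the range of the 7 sections. This was 1 of 36 groups examined in this way, and chance alone sets apart about 1 group in 20.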

How the results depend on the processing

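The cause of each change below was not tested. In posterior minus anterior sections, where edgeR called 0 genes, other settings called more. In VGLUT1 cells DESeq2 called 16 genes and 1 member, the replicate block 64 genes and 2 members, and slide 1 alone 6 genes. In GABA cells DESeq2 called 7 genes, the replicate block 39 genes and 1 member, and classes by their own criterion alone 3 genes. In double VGLUT cells DESeq2 called 1 gene, the replicate block 19 genes and 1 member, and slide 1 alone 1 gene. Leaving out 1 section at a time gave 0 to 11 genes and 0 to 1 members in VGLUT1 cells, and 0 to 19 genes and 0 to 2 members in double VGLUT cells. The interaction gave 0 to 1 genes for VGLUT2 minus VGLUT1 and 0 to 3 for VGLUT2 minus GABA cells.

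Under the alternatives run, the sign changed in 21 of 747 member values of the class comparisons and 93 of 2358 of the gates. In 16 and 69 of these the value was called neither before nor after the change, and the other 5 and 24 are given here. In double VGLUT minus VGLUT2 cells Igsf21 was -0.25 under library size and -0.19 without non-neuronal markers, and Nectin3 -0.048 under library size and -0.25 at a class threshold of 10. Nectin3 in double VGLUT minus VGLUT1 cells was 0.19 at a threshold of 3. Under library size, gated minus remaining cells gave -0.12 for Slitrk6 (Car4), -0.13 for Cntn6 (Cux2 in VGLUT1 cells), -0.16 for Cntnap5b and -0.16 for Tenm3 (Fezf2), and -0.030 for Cntn6 and -0.23 for Tenm3 (Foxp2). In GABA cells it gave -0.30 for Cntn6, -0.37 for Igsf21, -0.44 for Nectin3 and -0.13 for Sdk2 (Lamp5), -0.10 for Igsf21, -0.53 for Nectin3, -0.27 for Sdk2 and -0.35 for Slitrk6 (Penk), -0.26 for Cntn6, -0.36 for Igsf21 and -0.58 for Sdk2 (Pdyn), and -0.28 for Mdga1, -0.0072 for Sdk2 and -0.44 for Slitrk6 (Meis2). Scaling by cells gave 0.0093 for Cntn6 (Rorb). A gate threshold of 3 gave -0.16 (Fezf2) and -0.039 (Cplx3) for Cntnap5b, and one of 10 gave -0.077 for Nectin3 (Sst). At that threshold 20 of the 22 gates could be fitted.

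Among called genes the share higher in VGLUT1 minus GABA cells was 38.4% under library size and 51.8% under TMM, and in double VGLUT minus VGLUT1 cells 39.7% under library size, 67.0% by cells and 57.8% under TMM. The all-gene median was -0.23 and 0.00 under library size and TMM in VGLUT1 minus GABA cells, -0.13 and 0.03 in VGLUT2 minus GABA cells, and -0.12 and 0.16 in double VGLUT minus VGLUT1 cells.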
